A study of Mus musculus with 9 samples.

Results

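Of the 36274 H3K27ac interactions listed in untreated mouse embryonic stem cells, 15862 had 15 or more contacts, and 2413 of those had no interaction in the list after 12 h of IAA within 1 bin of 2 kb at both anchors. These 2413 are called missing here, which means not listed, and not shown to be absent. They were 15.2% of the well-counted interactions, and the other 13449 are called kept. The members were chosen by their contact counts and by the match between the H3K27ac lists, so their number is a description and no test is made on it.

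The cells were E14 mouse embryonic stem cells of the genotype CTCF AID, in which CTCF carries an auxin-inducible degron, grown in serum-free medium with LIF and the inhibitors PD0325901 and CHIR99021. MNase HiChIP ligates neighbouring DNA ends in crosslinked nuclei cut with micrococcal nuclease and then enriches them with an antibody. The untreated groups were H3K27ac (2 replicates), CTCF (2 replicates) and RAD21 (3 replicates), and the treated group was H3K27ac after 12 h of IAA (2 replicates). All groups, the untreated ones included, carry the degron, CTCF and RAD21 after IAA were not analysed here, and the deposited lists merge the replicates of a group. Replicate error is therefore unknown throughout, and no test between conditions could be run.

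H3K27ac marks active promoters and enhancers, and HiChIP against it lists contacts between such elements. Cohesin, of which RAD21 is a subunit, extrudes chromatin loops, and CTCF bound to its motif stops cohesin, most often where the motifs of a pair of anchors point towards each other. IAA is the auxin that triggers degradation of proteins with the degron. The level of CTCF protein after IAA was not analysed here.

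Sequences are shown for 3 of the 4 missing interactions with the most untreated contacts among those that both other lists contained, CTCF and RAD21, and that held a short form of the CTCF motif at both anchors. That form is CC, any 3 bases, AG, any 2 bases and GGC, searched on both strands. Each is a 40-base window of the RefSeq GRCm38 genome written 5′ to 3′ on the strand given, with the 12 matched letters in capitals. An interaction is named by the gene at or nearest to an anchor.
Slc35b1 left, chr11:95385110-95385149, forward strand: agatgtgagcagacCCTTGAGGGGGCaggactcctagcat
Slc35b1 right, chr11:95520113-95520152, forward strand: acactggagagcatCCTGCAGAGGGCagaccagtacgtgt
Zfp638 left, chr6:83879990-83880029, forward strand: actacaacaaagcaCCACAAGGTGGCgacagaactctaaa
Zfp638 right, chr6:83914257-83914296, reverse strand: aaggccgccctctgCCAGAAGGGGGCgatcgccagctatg
Hsp90aa1 left, chr12:110419430-110419469, forward strand: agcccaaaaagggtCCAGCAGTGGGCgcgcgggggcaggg
Hsp90aa1 right, chr12:110703094-110703133, reverse strand: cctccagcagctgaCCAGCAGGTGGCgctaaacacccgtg
The matches at Zfp638 and Hsp90aa1 pointed towards each other, and those printed for Slc35b1 lay on the same strand, although the right Slc35b1 bin held 3 matches. None of the 6 matches printed lay in soft-masked repeat sequence. The Hsp90aa1 left match lay outside the 1 kb bin of the CTCF list. The Hsp90aa1 pair joined an intergenic bin near Ppp2r5c to an intron of Hsp90aa1, a chaperone gene, over 284 kb, with 29 H3K27ac, 18 CTCF and 14 RAD21 contacts.

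Most missing interactions were short and near the lower end of the counts. Their untreated contacts ran from 15 to 70 with a median of 18, against 21 for kept ones, and 485 of them had exactly 15 contacts. Just outside that limit, 651 of the 2171 interactions with 14 contacts also had no match after IAA. The first members at the limit in genome order were on chromosome 1 from 20798001 to 20808000 (8 kb span) and from 20806001 to 20816000, and the first interaction just outside joined 13104001 to 13106000 with 13124001 to 13126000, which overlaps an exon of Prdm14. The median span between bins was 10 kb for missing and 12 kb for kept interactions. In 589 missing interactions the nearest interaction after IAA lay 2 bins away, and in 611 it lay more than 20 kb away at 1 anchor at least.

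The number of contacts a pair needed to be listed could be recovered from the files. At each distance, the contacts that the authors' model predicted were an exact log-linear function of the bias values of both bins, and the largest p-value in a list gives the smallest count that would be listed, called the calling minimum here. Listed pairs reach it by construction. Untreated contacts of missing interactions were a median of 1.25 times their own calling minimum, against 1.58 times for kept ones. The missing share was 36.6% (95% Wilson interval 34.5 to 38.8) at 1 to 1.1 times the minimum, 11.5% (10.6 to 12.4) at 1.5 to 2 times, 5.90% (5.10 to 6.82) at 2 to 3 times and 1.52% (0.922 to 2.49) at 3 or more times. Of the 15862 pairs with a count of 15 or more, 1885 were at 1 to 1.1 times the minimum and so had only just been listed. By span, 23.8% (22.3 to 25.3) were missing at 6 kb, the shortest span in the list. Over 150 kb the share was 21.6% (17.1 to 26.9), and it was lowest at 22 to 30 kb, with 8.86% (7.61 to 10.3). All 11 missing interactions with 50 or more contacts spanned 6 kb, except 1 of 8 kb at Pigl with 52 contacts and a minimum of 49. They held up to 70 contacts, and 10 of them had calling minima of 43 to 63, as at Mllt6, which had 70 contacts and a minimum of 63. The one with the fewest contacts, near Zbtb34 on chromosome 2 between 33432001 to 33434000 and 33438001 to 33440000, had 50 contacts, a calling minimum of 22 and an interaction in the CTCF list with 18 CTCF contacts.

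Both bins of 761 missing interactions were listed after IAA with other partners. For 753 of them the model at that distance could be recovered and the minimum after IAA computed, and a pair that was not listed held at most 1 contact fewer than it. Untreated counts were multiplied by 0.980, the ratio of contacts over bin pairs present in both lists. In 629 of the 753 the scaled untreated count was at or above the minimum after IAA, in 291 it was at least 1.5 times the minimum and in 60 at least 2 times. The lower limit of the exact 95% Poisson interval of the untreated count, so scaled, lay above the highest uncalled count in 264. Of those 264, 42 (15.9%) were in the CTCF list, 39 (14.8%) in the RAD21 list and 213 (80.7%) in neither. Among all 2413 missing interactions these shares were 8.99%, 7.50% and 88.7%. In the other 124 of the 753 the scaled count lay below the minimum, so an unchanged count would not have been listed. With the ratio of the model totals, 1.17, as the scale, 745 of the 753 were at or above the minimum and the Poisson limit was passed in 394. The untreated counts also chose the members, which favours high ones, so these counts are descriptions and not tests. The plot of the upper limits shows these values.

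**Figure D1:**
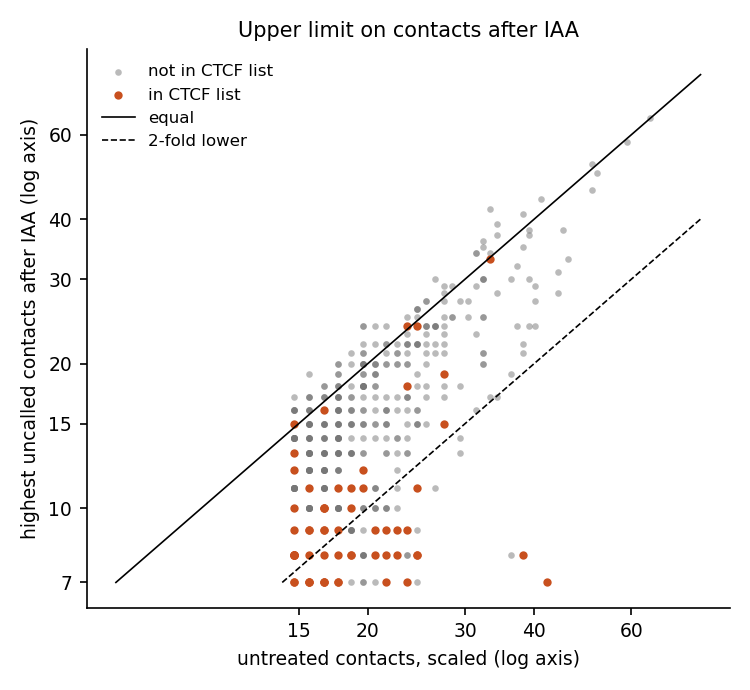
Each point is 1 of 753 missing interactions, with its scaled untreated contacts (x, log axis) and the highest count that would not have been called after IAA (y, log axis). The scaled count was over 2 times the limit for 116 points, below the dashed line, of which 28 were in the CTCF list (orange), and 77 points lie on or above the line of equal counts.

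Over all spans together, missing interactions coincided with CTCF and RAD21 interactions more often than kept ones of like span and contact count. For this comparison, kept interactions were weighted to the spread of the missing ones over 9 classes of span by 7 classes of contacts. The same 2 kb bin pair was in the CTCF list for 217 of 2413 missing interactions, or 8.99% (7.92 to 10.2), against 3.92% of weighted kept ones. It was in the RAD21 list for 181, or 7.50% (6.52 to 8.62), against 3.36%, and in both lists for 125, or 5.18% (4.37 to 6.14), against 1.5%. It was in the RAD21 list alone for 2.32% (1.79 to 3.00), against 1.86%, and 10.2% (7.94 to 13.0) of all well-counted pairs in the RAD21 list alone were missing, against 14.8% (14.3 to 15.4) of those in neither list. Anchors of the CTCF list were found at both ends in 16% (14.6 to 17.5) against 8.75%, and at neither end in 49.8% (47.8 to 51.8) against 58.9%. Such an anchor lay between the ends of 33.0% (31.1 to 34.9) against 31.8%, which is inside the interval. That difference of 1.21 points depended on the settings. It was 3.61 when only the same bin pair after IAA counted as kept, and 3.37 with lower anchor coverage added to the classes. With classes of span and of count over the calling minimum it was -0.579. Most missing interactions, 2140 or 88.7%, were in neither list, as were 14434 of all 15862 well-counted ones. The missing share of those 14434, 14.8%, was near the 15.2% of all well-counted interactions. The excess was not seen in all classes at 30 kb or less, a limit chosen after the values were seen. There, 14.3% (10.1 to 19.9) of 196 pairs in both lists and 9.25% (6.76 to 12.5) of 389 in the RAD21 list alone were missing. The shares were 21.1% (17.2 to 25.6) of 360 in the CTCF list alone and 15.6% (14.9 to 16.2) of 11987 in neither. Over 30 kb, 42.5% of 228 in both lists and 11.1% of 2447 in neither were missing. The intervals cover counting error only and treat pairs as independent, which those that share an anchor are not. The difference in the RAD21 list depended on the bin match: it was 4.14 points at the same bin pair and 0.303 points when a RAD21 interaction within 1 bin counted, and for CTCF these were 5.08 and 3.21 points. When only the same H3K27ac bin pair after IAA counted as kept, the differences were 1.38 points for CTCF and 1.23 for RAD21. For CTCF-list anchors at both ends the difference went from 7.24 to 1.53 points with that choice.

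**Figure D2:**
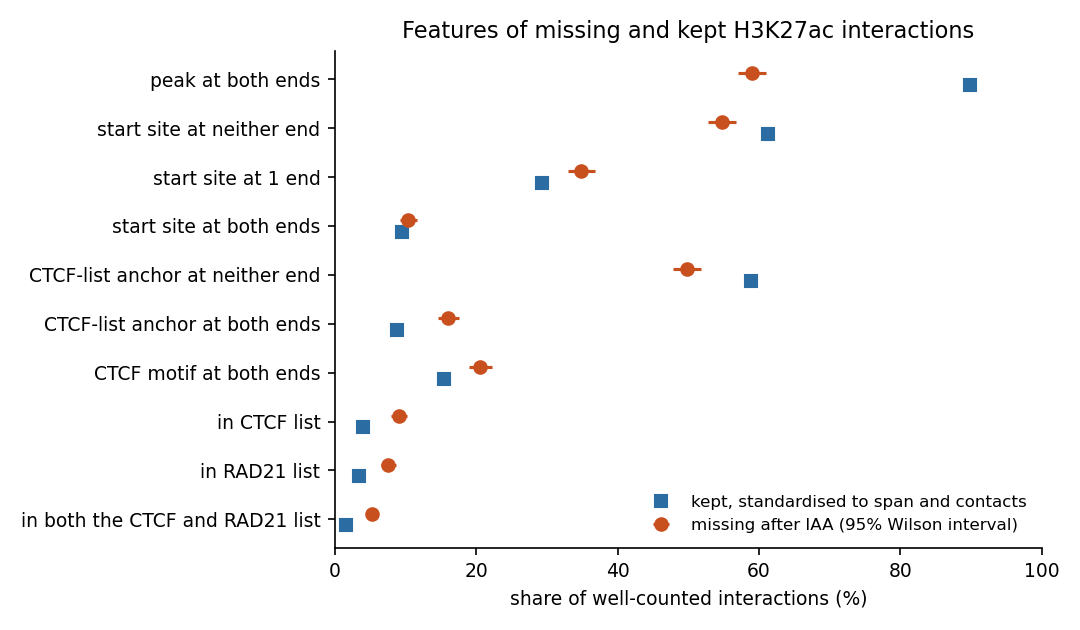
The share of interactions with each feature (x, percent) is shown for the 2413 missing interactions (circles, with 95% Wilson intervals) and for kept ones weighted to the same spans and contacts (squares). The CTCF and RAD21 features, other than CTCF-list anchors at neither end, and start sites at 1 end sit to the right for missing interactions. CTCF-list anchors at neither end sit to the left (49.8% against 58.9%), and peaks at both ends far to the left (59.0% against 89.8%).

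The difference was widest for pairs at 2 to 3 times their calling minimum. At 1 to 1.25 times the minimum, 34.4% (25.5 to 44.5) of interactions in the CTCF list were missing and 29.5% (28.1 to 31) of the others. At 2 to 3 times, these shares were 24.8% (20.1 to 30.2) and 3.88% (3.20 to 4.69), and at 3 or more times 7.87% (4.33 to 13.9) and 0.581% (0.248 to 1.35). RAD21 gave 33.3% (22.9 to 45.6) and 29.6% (28.2 to 31) at 1 to 1.25 times, 21% (16.9 to 25.7) and 3.96% (3.27 to 4.79) at 2 to 3 times, and 4.64% (2.61 to 8.12) and 0.533% (0.207 to 1.36) at 3 or more times. In the last class the differences in points were thus again smaller. In each list the intervals do not overlap from 1.5 times the minimum upwards.

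**Figure D3:**
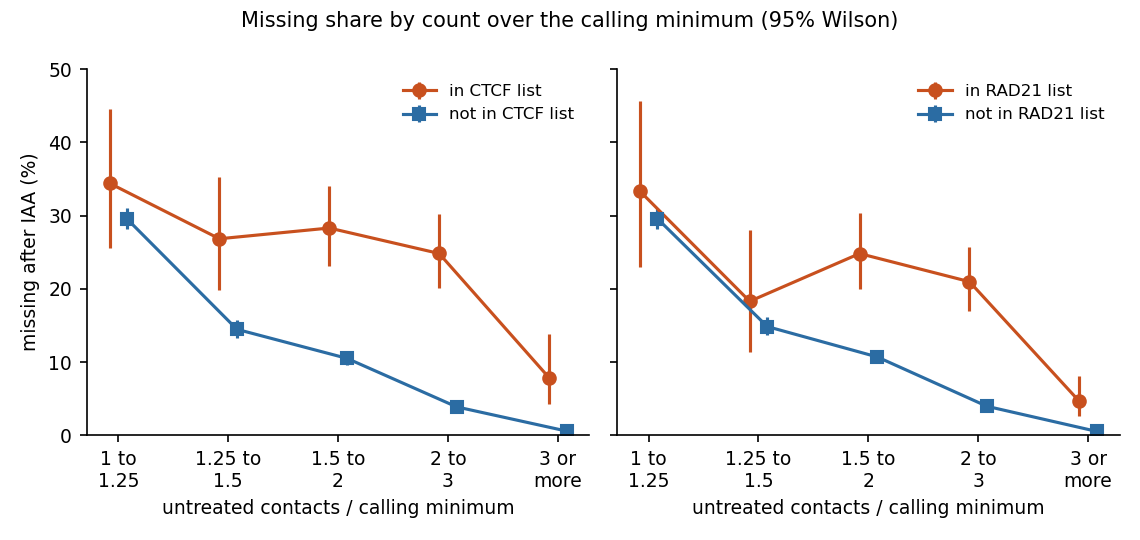
The share of well-counted interactions missing after IAA (y, percent, with 95% Wilson intervals) is plotted by the ratio of untreated contacts to the calling minimum (x), for pairs in and not in the CTCF list (left) and the RAD21 list (right). The blue series falls to 0.581% and 0.533% in the last class, and the orange series is 24.8% and 21% in the class from 2 to 3.

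Among interactions at 2 or more times the minimum, span separated the classes further. Over 30 kb, 66 of 165 pairs in both lists were missing, or 40% (32.8 to 47.6). The share was 16.4% (8.86 to 28.3) of 55 in the CTCF list alone, 8.13% (4.48 to 14.3) of 123 in the RAD21 list alone and 6.10% (4.92 to 7.53) of 1296 in neither. At 30 kb or less, 2 of 86 pairs in both lists were missing, or 2.33% (0.640 to 8.09), and 0.810% (0.491 to 1.33) of 1852 in neither. CTCF-list anchors at both ends without a listed CTCF interaction between them gave 9.15% (5.62 to 14.5) of 164 over 30 kb. These classes and limits were chosen after the values were seen.

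**Figure D4:**
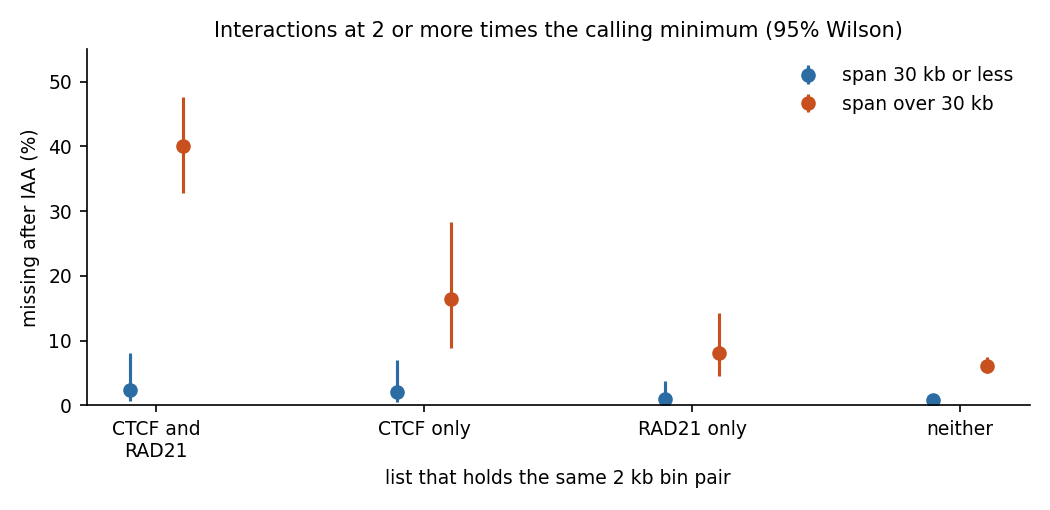
For interactions with 2 or more times the calling minimum, the share missing after IAA (y, percent, with 95% Wilson intervals) is plotted by the list that holds the same bin pair (x) and by span (colours). Pairs over 30 kb in both lists stand at 40%, and all classes of 30 kb or less lie under 3%.

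The missing share also followed the contacts in the CTCF and RAD21 data, which the choice of members did not use. Of well-counted H3K27ac pairs in the CTCF list, 18.9% (15.1 to 23.5) of 333 with 6 to 19 CTCF contacts were missing, 22.3% (18.5 to 26.6) of 408 with 20 to 49, 38.8% (28.8 to 49.7) of 80 with 51 to 99 and 55.2% (42.5 to 67.3) of 58 with 102 to 470. For RAD21 the shares were 13.8% (11.4 to 16.6) of 673 with 6 to 19 contacts, 20.2% (15.5 to 25.8) of 233 with 20 to 49 and 61.2% (49.2 to 72.0) of 67 with 50 to 386. The median CTCF count was 29 for missing and 22 for kept pairs, while the median span was 36 kb and 20 kb, so strength and span moved together.

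Anchors of missing interactions held the motif letters more often. The short motif form on either strand was present in 18.4% of all 2 kb bins of the genome and in 39.6% of the anchor bins of the untreated H3K27ac list. It was present in 43.4% of the 4166 anchor bins of missing interactions, 38.6% of those of kept ones and 68.8% of the 404 anchor bins of missing interactions in the CTCF list. Matches at both ends were found in 20.6% (19 to 22.2) of missing and 15.4% of weighted kept interactions. With a longer form (CCGCG, any base, GG, any base, GGCAG) and up to 2 mismatches at its named bases, the difference was 0.755 points in place of 5.19. Where both anchors had matches on a single strand each, 27 of 66 missing pairs in the CTCF list were convergent, or 40.9% (29.9 to 53.0), against 36 of 146 kept pairs in the CTCF list, or 24.7% (18.4 to 32.2). Outside the CTCF list the shares were 23.8% (19.2 to 29.2) and 23.1% (20.9 to 25.3). A match is a description of letters and not evidence of binding.

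The interaction with the most contacts relative to its minimum was the one drawn first above, between the start-site bin of Slc35b1, which encodes a transporter of the endoplasmic reticulum, at 95384001 to 95386000 on chromosome 11, and an intergenic bin 136 kb away near Nxph3 at 95520001 to 95522000. It held 43 H3K27ac contacts where 1.38 were predicted, 146 CTCF contacts and 95 RAD21 contacts. After IAA a count of 8 would have been listed, so the pair held at most 7 contacts, a log2 ratio of -2.59 or lower against the scaled count. Both bins stayed listed, with coverage of 4446 and 2253 reads before and 4724 and 3064 after IAA. The Slc35b1 bin had 9 partners without treatment and 5 after IAA. The 2 partners at the Kat7 start site, 76 and 74 kb away, remained in the list with 13 and 18 contacts before and 10 and 14 after, as did the one 28 kb away with 11 and 10. All 4 partners 130 to 136 kb away were no longer listed, nor were the one 18 kb away with 17 contacts and one near Tac4 with 9. Partners 8 and 328 kb away were listed only after IAA, with 26 and 8 contacts.

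At Zfp638, which encodes a zinc finger protein, the missing interaction joined an intronic bin at 83880001 to 83882000 on chromosome 6 to the start-site bin at 83914001 to 83916000, 34 kb away, with 39 H3K27ac, 147 CTCF and 89 RAD21 contacts. After IAA the pair held at most 8 contacts, a log2 ratio of -2.26 or lower. The same start-site bin remained in contact with intronic bins nearer to it. The partner 22 kb away held 48 contacts before and 36 after IAA, the partner 24 kb away 32 and 22, and the partner 26 kb away 20 and 14. The partners 20 and 28 kb away held 17 and 11 before and 24 and 13 after, and one 16 kb away was listed only after IAA, with 13. So were partners 76 and 78 kb away with 10 contacts each, and one 22 kb away on the other side with 11. Its contacts with the start sites of Nagk and Paip2b, 120 and 84 kb away, numbered 8 and 14 before and 18 and 19 after. The partners 32, 36, 38 and 48 kb away, with 11 to 16 contacts, were not in the list after IAA either.

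**Figure D5:**
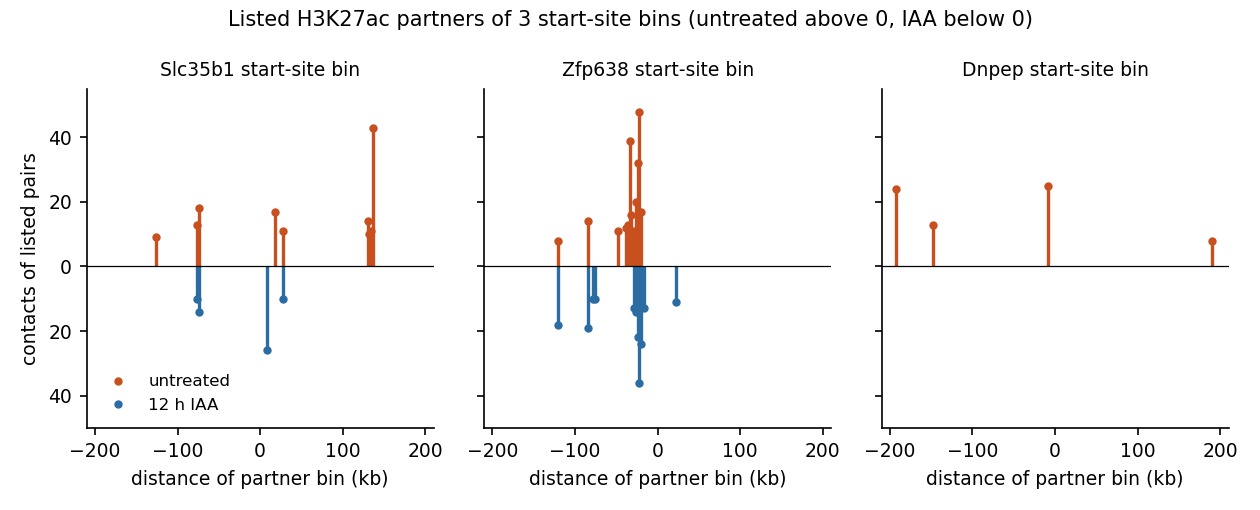
Each line is a listed H3K27ac interaction of the start-site bin named above the panel, with its contacts (y, untreated above 0 and 12 h IAA below 0) and the distance of its partner (x, kb, within 200 kb). The 43-contact partner of Slc35b1 at 136 kb and the 39-contact partner of Zfp638 at -34 kb have no line below 0, and the Dnpep bin has none at all after IAA.

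Further pairs with low upper limits spanned 32 to 154 kb. The start site of Radil and an exon of Ap5z1 on chromosome 5 had 24 H3K27ac, 179 CTCF and 139 RAD21 contacts, and at most 7 H3K27ac contacts after IAA (log2 ratio -1.75 or lower). The start sites of Trappc9, a trafficking protein, and Ago2, an Argonaute protein of the RNA interference pathway, on chromosome 15 had 22 contacts and then at most 7 (-1.62). Kansl1, a subunit of a histone acetyltransferase complex, and an exon of Mapt on chromosome 11, 154 kb apart, had 25 contacts and then at most 8 (-1.61). Not all such bin pairs were in the CTCF list. An exon of Pigv and an intergenic bin 154 kb away near Rps6ka1 had 25 and then at most 7 (-1.81), and Snapc5 and a bin near Tipin 25 and then at most 8 (-1.61), both outside the CTCF and RAD21 lists. An exon of Malat1, an abundant nuclear long non-coding RNA, and an exon of Frmd8 on chromosome 19 had 37 contacts and then at most 8 (-2.18). That bin pair was in neither list, but the missing pair 1 bin away at each anchor had 20 H3K27ac, 88 CTCF and 55 RAD21 contacts. The choice of these pairs by their limits was made after the values were seen.

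For other strong members the limit could not be computed, since a bin was not listed after IAA or the model was not recovered. The start site of Fignl1, an ATPase of recombination repair, and an intron of Grb10, an imprinted adaptor of insulin signalling, 164 kb apart on chromosome 11, had 40 H3K27ac, 71 CTCF and 49 RAD21 contacts where 1.32 were predicted. The start site of Dnpep, an aminopeptidase, on chromosome 1 had 24 contacts with an intron of Nhej1 192 kb away, and none of the 12 other untreated interactions at these anchors had a match after IAA. Vps18, a subunit of endosomal tethering complexes, had 24 contacts with a bin 38 kb away near Spint1, with 145 CTCF and 89 RAD21 contacts.

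Start sites of protein-coding genes lay at both ends of 250 missing interactions, or 10.4% (9.21 to 11.6), against 9.44% of weighted kept ones. They lay at 1 end of 34.9% (33.0 to 36.8) against 29.4%, and at neither end of 54.8% (52.8 to 56.8) against 61.2%. When the neighbouring bins counted as well, the difference for start sites at both ends changed from 0.916 to -2.08 points, so its direction depended on that choice. When only the same bin pair after IAA counted as kept, the differences turned to -4.09 points at both ends and 2.75 at neither end. In all, 1239 genes had a start site at a missing anchor, of the 3913 with one at any well-counted anchor. Of these 1239, 554 had no kept well-counted interaction and 283 had no interaction at those bins in the list after IAA. A gene without a kept one must have a missing one, so the 554 are all such genes among the 3913. For the 283 no count over all 3913 is given here. Both counts follow in part from the choice of members and are descriptions.

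The start sites with the most missing interactions were those of Irf2bpl (7), Gm16253 (5), and Trp53, Atp6v0c, Mlec and Tnfsfm13 (4 each). Irf2bpl had 27 interactions with 452 contacts without treatment and 13 with 232 contacts after IAA. Trp53, which encodes the p53 tumour suppressor, had 25 with 349 contacts and then 15 with 206. Atp6v0c, a subunit of the vacuolar proton pump, had 20 with 315 and then 11 with 198. Mlec, which encodes a carbohydrate-binding protein of the endoplasmic reticulum, had 9 with 221 contacts and then 3 with 36. Kept well-counted interactions numbered 6 at Irf2bpl, 6 at Trp53, 3 at Atp6v0c and 3 at Mlec. For scale, the whole list after IAA held 77.8% as many interactions and 81.8% as many contacts as the untreated list. The start sites were picked for their missing interactions, so the falls at them follow in part from that choice and are descriptions.

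Gene lists were set beside the 16.6% of well-counted interactions at protein-coding start sites that were missing. Of 124 such interactions at 20 pluripotency genes, 10 were missing, or 8.06%, at Pou5f1, Nanog, Klf2, Tbx3, Fgf4, Nr5a2 and Fbxo15. The share was 3 of 30 for signalling targets (Egr1, Socs3, Smad7), 3 of 24 for CTCF and cohesin genes (all at Cdca5, whose bin also holds the Zfpl1 start site), 5 of 37 for chromatin regulators (Uhrf1, Suz12, Kdm1a, Arid1a) and 10 of 49, or 20.4%, for housekeeping genes. Of the 20 later lineage genes only 2 had well-counted interactions, and 0 of those 5 interactions were missing. No list is called apart from the others on these counts.

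Of these promoter interactions, 8 with the most contacts are described, where Tbx3, Arid1a and Egr1 tied with the last at 22 contacts. Socs3, an inhibitor of JAK-STAT signalling downstream of LIF, had 40 contacts with a bin 6 kb away and at most 30 after IAA. Its start-site bins had 13 interactions with 233 contacts without treatment and 3 with 77 after IAA, a fall that follows in part from the choice of members. Suz12, a Polycomb subunit, had 38 contacts with a bin 10 kb away. Fgf4, an autocrine ligand of the ERK pathway, had 37 contacts within its own gene, 6 kb apart, and at most 30 after IAA. The calling minimum after IAA was 31 for both the Socs3 and the Fgf4 pair. Whether the contacts of these pairs fell beyond counting error was not tested. Nanog, a pluripotency factor, had 28 contacts with an exon bin of its own gene against a calling minimum of 27, and 24 with an intergenic bin 20 kb away, which held at most 13 after IAA. Fbxo15 (33 and 31 contacts) and Uhrf1 (22 contacts), a factor of DNA methylation maintenance, had missing pairs within their own genes. Ldha, which encodes lactate dehydrogenase and was picked after its values were seen, had 5 interactions with 66 contacts, 3 of them missing members of 15 to 17 contacts, and none in the list after IAA.

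Joined through shared or neighbouring bins, the members formed 1589 groups, of which 1133 had a single member and 31 had 5 or more. The largest, with 17 members and 414 contacts, spanned 66 kb on chromosome 19 from 5786001 to 5852000 over Malat1, Neat1, the RNA scaffold of paraspeckles, and Frmd8. Interactions inside it went from 140 to 94 and their contacts from 3542 to 2438, and 109 of the 140 had a match, while 34.3% of the whole untreated list had none. The next held 13 members over 120 kb at Irf2bpl on chromosome 12, where interactions went from 112 to 56 and contacts from 1792 to 932, with none of the members in the CTCF list and 1 in the RAD21 list. The group at Nanog and Slc2a3, a glucose transporter gene, had 11 members, of which 2 were in both lists. Those were the pairs between Slc2a3 bins at 122742001 and 122740001 and the intronic bin at 122784001 on chromosome 6, with 23 and 19 H3K27ac contacts and a calling minimum of 9 before and after IAA. Groups of 10 members each lay mostly within Ywhag, which encodes a 14-3-3 protein, and Arhgef10l, each with 1 anchor outside the gene, and within Myo10. Inside the Arhgef10l group 27 interactions became 6, and only 3 of its 12 anchor bins were listed after IAA. The groups were formed from missing interactions, so the falls inside them follow in part from the choice of members and are descriptions.

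Coverage at the anchors, the reads of a bin whatever their partner, moved by a small amount. It is known after IAA only for listed bins, which were 55.1% of the 4166 anchor bins of missing and 90.9% of the 11868 of kept interactions. Relative to the median of 16828 bins in both lists, the median log2 change was -0.08 over 2033 missing interactions and -0.03 over kept ones, or -0.02 with weights, and it was below 0 for 72.7% and 59.5%. The quartiles for missing interactions were -0.16 and 0.01. The lowest values were -0.76 at Mtf1, a metal-responsive transcription factor, whose start-site bin on chromosome 4 went from 4571 to 3095 reads, -0.72 at Jrk and Them6, and -0.71 at an intron of Ccr4 on chromosome 9, from 3833 to 2686. These 3 interactions were in the CTCF list, and the next 2, near Inhbb at -0.68, were not. Within the CTCF list the median was -0.08 for missing and -0.07 for kept interactions. Untreated coverage was lower at missing interactions, with a median of 1311 reads at the weaker bin against 2163. Both bins were peaks in 59.0% (57.0 to 60.9) of missing and 89.8% of weighted kept interactions, and 41.6% (39.6 to 43.6) of the well-counted interactions with a single peak bin were missing. The peak flag was the same in both lists for all 16828 bins. Whether peaks were called separately for each list was not examined, so the flag does not show that peaks stayed the same after IAA. With lower anchor coverage added to the classes, the CTCF and RAD21 list differences were 4.57 and 3.58 points. The part of peak status in them was not tested.

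Most other partners of the same anchors were kept, but a smaller share than at the anchors of kept interactions. Of the 2413 missing interactions, 251 had no other untreated interaction at either anchor. In the other 2162, a mean of 60.6% of the other interactions had a match after IAA, against 70.9% of those at the anchors of weighted kept interactions. All other interactions were matched for 367 of them and none for 284, against 2516 and 569 of the 12780 kept interactions with others. Partners of 1 anchor and members that share an anchor are not independent, and this value comes from the same contrast that chose the members.

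From predicted contacts and probabilities, the totals behind the calls came to 12551236 contacts without treatment and 14629323 after IAA. Across chromosomes with members, the missing share of well-counted interactions ran from 11% on chromosome 1 to 18.3% on chromosome 15, with 13.8% on X.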

How the data were processed

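The authors deposited 1 list of called interactions per group, pooled over replicates, in the FitHiChIP column layout per the file headers. Each row gives a contact count, not normalised, for bins of 2 kb (H3K27ac) or 1 kb (CTCF, RAD21), the coverage of each bin, a peak flag, a predicted contact count, which is a signal of the authors' model, and the deposited p-value and q-value. All listed q-values are under 0.05. The submitters' processing notes name mm10, Trim Galore, BWA, MACS2 and deepTools. Against the RefSeq GRCm38 genome, 0 anchors lay beyond a chromosome end, and genes came from a GENCODE annotation of that build. Coordinates count from 1.

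Members, gene lists and classes were chosen with earlier results of these data known. CTCF and RAD21 interactions were assigned to 2 kb bin pairs. Shares carry 95% Wilson intervals. PCR copies could not be told from separate molecules, so the intervals cover counting error only. Kept interactions were weighted to the missing ones over classes of span and contacts, and the weighting was tested on simulated data. Calling minima were recovered for distances with at least 10 listed pairs. This replaced a planned comparison of the lowest listed counts by span, and was chosen after seeing the data. Named interactions are the top 10 by contacts (1 within 2 bins of another left out), the largest groups, pairs in both lists with motif letters, those at listed genes, the start sites with the most members and the lowest coverage changes, except where the text says that they were chosen otherwise. Of the pairs chosen for printed sequence, 1 is not reported here. Python 3.11.15, numpy 2.4.6, pandas 2.3.3 and scipy 1.17.1 were used. Other settings were tried for each result, and 2 of the 75 listed at the start could not be run.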

Additional observations from a re-analysis of the deposited data

How the results depend on the processing

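No paired analysis was possible because each list merges its group's replicates without numbers, which also prevented leaving one out. Differences below are missing less weighted kept, in percentage points, or log2 units for coverage. Of 89 combinations of result and alternative, 56 kept their sign and moved by no more than a margin, or were counts within 1.5 times. The margin came from the 95% Wilson interval of the missing group's share (over 30 kb, of the pairs in both lists), the order-statistic interval of its median for coverage, and the widest normal binomial interval for partners. The cause of the changes below was not tested. With a minimum of 20 contacts there were 835 missing interactions, and the differences were 3.87 for the CTCF list, 2.82 for the RAD21 list, -6.76 for other partners kept and -0.0695 for coverage. Matching only the same bin pair gave 5622 missing interactions, 1.38 for the CTCF list, 1.23 for the RAD21 list, 1.53 for CTCF-list anchors at both ends, 3.61 for anchors between, 3.55 for the motif and -3.32 for partners, and turned start sites at both ends to -4.09 and at neither end to 2.75. Matching within 2 bins gave 8.85 for CTCF-list anchors at both ends, 2.73 for start sites at both ends and -9.15 at neither. Trimming the untreated list to the length of the other gave 8.71 for CTCF-list anchors at both ends. Classes of span alone gave 2.08 for the RAD21 list and -0.0516 for coverage, and adding lower anchor coverage gave 3.37 for anchors between. A q-value of 0.01 or less gave 6.58 for the CTCF list, 5.51 for the RAD21 list, 9.10 for CTCF-list anchors at both ends and -8.55 for start sites at neither end. Counting a CTCF or RAD21 interaction within 1 bin gave 3.21 and 0.303. Start sites in neighbouring bins gave -2.08 at both ends and -3.17 at neither, and the longer motif gave 0.755. For pairs at 2 or more times the calling minimum, the difference over 30 kb between those in both lists and in neither was 33.9 as reported. It was 23.5 at 20 contacts and 23.1 within 1 bin. Classes of span and of count over the calling minimum, chosen after seeing the data, turned anchors between to -0.579. Depth limits these lists to pairs above a calling minimum, so a missing pair has no count after IAA, and an upper limit for 753 of the 2413.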
